A study of Homo sapiens with 3 samples.

Results

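The promoter contacts of 9 genes that make, sense or degrade retinoic acid, or encode the NR2F orphan receptors, were taken from a promoter capture Hi-C (PCHi-C) map of human cardiomyocytes. The genes were *ALDH1A2*, *RARA*, *RARB*, *RARG*, *RXRA*, *CYP26A1*, *CYP26B1*, *NR2F1* and *NR2F2*. In PCHi-C, neighbouring stretches of chromatin are crosslinked, digested with HindIII and ligated to each other, and the ligation products with a promoter are captured and sequenced. Each call joins a promoter fragment to another HindIII fragment, the promoter-interacting region (PIR), and carries a CHiCAGO score, which grows with the excess of reads over what distance and technical noise predict. The lowest score listed was 5. A promoter fragment was counted for a gene where the promoter side of a call held an annotated transcript start of that gene. Of the 9 genes, 8 had such a fragment in at least 1 replicate, out of 25447 genes in the whole map. *NR2F2* had 2, so that 9 of 19075 promoter fragments were described.

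The cells were hESC-CMs, that is cardiomyocytes made with a commercial kit from WA09 (H9), a human embryonic stem cell line, at passage 32. They were enriched for 6 days in medium with 4 mM lactate in place of glucose, which most other cell types survive poorly, and passed a quality check of at least 80 to 90% purity by the cardiac markers *MYH7* and *TNNT2*. The map held 3 biological replicates of this 1 condition, from 1 cell line, and calls on the 3 replicates merged. There was no other condition to compare with, contact calls hold no expression values to check the cell type against, and sequencing depth was not used here. Replicates 1, 2 and 3 held 112473, 109731 and 110740 calls.

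Retinoic acid is made from vitamin A in the last step by retinaldehyde dehydrogenases, of which ALDH1A2 is the main enzyme of the early embryo, and it is broken down by the CYP26 cytochromes. It binds the retinoic acid receptors RARA, RARB and RARG, which pair with the retinoid X receptor RXRA on direct repeats of a short half-site and switch nearby genes on. In the developing heart retinoic acid helps to set the venous and atrial end of the heart tube, and the orphan nuclear receptors NR2F1 (COUP-TFI) and NR2F2 (COUP-TFII) are retinoic acid-inducible regulators of atrial identity.

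*RARB* and *CYP26A1* are textbook targets of the receptors, and their promoter windows are shown for the direct repeats they hold. A window here is 250 bases before to 50 bases after a RefSeq transcript start (GRCh38.p14), placed on GRCh37 by exact match. A direct repeat was searched on both strands as a pair of half-sites, each spelled AGGTCA or AGTTCA or GGGTCA or GGTTCA, with 5 bases (DR5), 2 bases (DR2) or 1 base (DR1) between them. Among 35116 windows of all genes, 0.0883% held a DR5, 0.0399% a DR2 and 0.131% a DR1. Of the 19 windows of the 9 genes, 2 held a DR5 and 0 held a DR1 or DR2. Both are printed 5′ to 3′ on the strand of the gene with the DR5 in capitals. The *RARB* window at chr3:25469504-25469803 (+) holds it at bases 198 to 214, and the *CYP26A1* window at chr10:94833400-94833699 (+) at bases 161 to 177, where it reads as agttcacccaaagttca on the opposite strand.
RARB window: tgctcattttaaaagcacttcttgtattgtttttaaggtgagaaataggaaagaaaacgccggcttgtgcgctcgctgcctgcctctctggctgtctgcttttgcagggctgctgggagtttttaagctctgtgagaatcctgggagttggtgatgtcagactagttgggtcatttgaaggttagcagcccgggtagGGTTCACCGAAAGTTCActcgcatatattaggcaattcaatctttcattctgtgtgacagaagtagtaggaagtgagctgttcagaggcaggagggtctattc
CYP26A1 window: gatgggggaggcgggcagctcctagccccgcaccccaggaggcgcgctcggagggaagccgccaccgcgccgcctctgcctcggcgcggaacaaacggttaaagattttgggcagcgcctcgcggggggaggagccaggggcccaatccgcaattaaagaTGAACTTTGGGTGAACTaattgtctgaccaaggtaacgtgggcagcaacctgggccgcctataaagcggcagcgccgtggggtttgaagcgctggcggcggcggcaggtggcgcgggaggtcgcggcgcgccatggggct
The *CYP26A1* window lay inside that gene's promoter fragment, which had 25 contacts. The *RARB* window lay in no promoter fragment of the 3 replicates.

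Most PIRs were too long to print, but 2 of the highest-scoring ones were short enough to be shown whole. They are the strongest contacts of under 300 bases, the first with *CYP26A1* and the second with *NR2F2*, and both were called in all 3 replicates and overlapped no annotated gene. They are written on the + strand of GRCh37, and the capitals mark the ends that the HindIII cut leaves.
CYP26A1 PIR, chr10:95046479-95046638: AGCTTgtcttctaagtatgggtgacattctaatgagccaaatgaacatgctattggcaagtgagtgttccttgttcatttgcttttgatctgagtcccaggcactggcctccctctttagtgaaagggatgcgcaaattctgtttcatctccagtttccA
NR2F2 PIR, chr15:95212947-95213225: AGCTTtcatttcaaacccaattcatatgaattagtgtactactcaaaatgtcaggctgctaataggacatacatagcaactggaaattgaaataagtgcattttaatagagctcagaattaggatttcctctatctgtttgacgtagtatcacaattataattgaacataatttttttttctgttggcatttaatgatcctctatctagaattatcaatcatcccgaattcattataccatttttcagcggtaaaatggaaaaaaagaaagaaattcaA
The *CYP26A1* PIR is 160 bases long with a GC content of 43.8%, and the *NR2F2* PIR is 279 bases long with a GC content of 30.1%. Neither held a DR1, DR2 or DR5 as defined above.

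The 9 promoter fragments had 159 contacts with 149 distinct PIRs. A contact is here a pair of fragments called in at least 1 replicate, in either order. Every replicate called 59 of the 159, while 47 were called in 2 replicates and 53 in a single replicate. The share in all 3 was 37.1% (95% Wilson interval 30.0 to 44.8, counting error only), beside 24.0% of all 200587 contacts of the map. The share called in 1 replicate alone was 33.3%, beside 58.0% of all contacts. Replicates 1, 2 and 3 held 113, 101 and 110 of the contacts (108 ± 6.25, SD, n = 3), so no replicate stood apart in their number. Contacts of 1 promoter share its fragment and are no replicates of each other, so these shares were not tested against each other.

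In the order of contacts per replicate, the NR2F and CYP26 genes stood above the synthesis gene, and this above the receptors. *NR2F2* had 24.0 ± 3.61 contacts (SD, n = 3, range 21 to 28) over its 2 fragments and *NR2F1* 20.7 ± 3.21 (17 to 23). *CYP26A1* had 19.3 ± 2.08 (17 to 21) and *CYP26B1* 18.3 ± 3.06 (15 to 21). Neighbours among these 4 genes overlapped between replicates. *NR2F2* stood first only with its 2 fragments added, and all 10 PIRs of the first were also PIRs of the second. The second *NR2F2* fragment alone had 17, 17 and 20 contacts in replicates 1, 2 and 3. Its mean lay below those of *NR2F1*, *CYP26A1* and *CYP26B1*, with overlap between replicates. *ALDH1A2*, at 12.7 ± 1.15 (12 to 14), lay below every replicate of *CYP26B1* and above every replicate of *RARA*, which had 7.67 ± 2.52 (5 to 10). *RARG* had 4.67 ± 2.08 (3 to 7), overlapping *RARA*, and *RARB* 0.667 ± 0.577 (0 to 1). *RXRA* had 0. This order did not hold under each setting: on the merged calls *ALDH1A2* had 28 contacts and *CYP26B1* 27, and *RARB* had 8 and *RARG* 5. With scores of at least 7 *ALDH1A2* and *RARA* had 6 each. With scores of at least 10 *CYP26A1* had 9, *NR2F2* 8, *CYP26B1* 7, *NR2F1* 4 and *ALDH1A2* 3. Counted instead in the union of the replicates, the median promoter fragment of the map had 6 contacts. By that count *RARB* had 2, *RARG* 7, *RARA* 11 and *ALDH1A2* 16. *CYP26A1* had 25, *CYP26B1* 27, *NR2F1* 35, and the first and second *NR2F2* fragments 10 and 26.

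**Figure D1:**
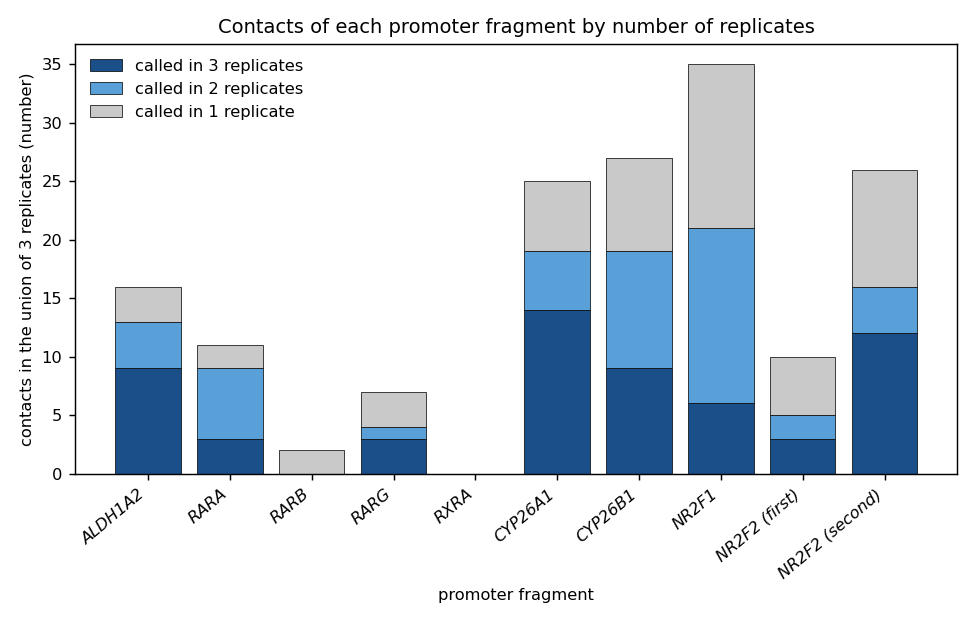
Number of contacts (y axis) of each promoter fragment of the retinoic acid and NR2F genes (x axis) in the union of the 3 replicates, split by how many replicates called them. *NR2F1* has the tallest bar with 35 contacts, of which 6 were called in all 3, while *CYP26A1* has 14 of 25 in all 3. *RXRA* has no promoter fragment and thus 0 contacts.

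Recurrence fell with distance, as it did over the whole map. Under 250 kb, 51.7% of the 29 contacts of these genes were called in all 3 replicates, beside 40.4% of all contacts at that distance. From 1000 to 2000 kb it was 30.9% of 55 contacts, beside 18.7%. From 2000 kb on it was 18.2% of 11 contacts, beside 7.67%. The share of the 9 fragments was the higher in each of the distance classes.

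**Figure D2:**
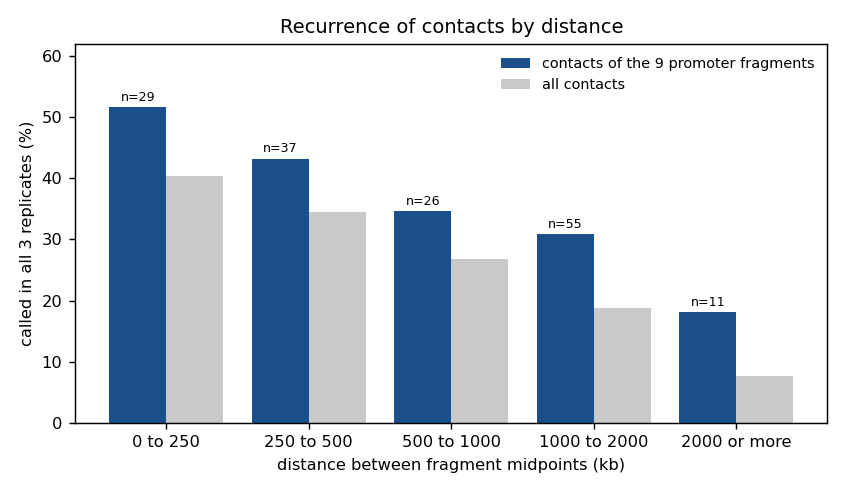
Share of contacts called in all 3 replicates (y axis, %) by the distance between fragment midpoints (x axis, kb), for the 9 promoter fragments (dark, number of contacts above the bar) and for all contacts of the map (grey). Both fall with distance, from 51.7% and 40.4% under 250 kb to 18.2% and 7.67% at 2000 kb or more.

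Of the 159 contacts, 66 spanned more than 1 Mb on the same chromosome, beside a background of 40.4% of all contacts, and 1 joined different chromosomes. These long contacts were nearly all those of the orphan receptors. *NR2F1* and *NR2F2* together had 63 of them, 88.7% of their 71 contacts, and the other members 3, or 3.41% of 88. The median distance was 606 kb over the 9 fragments and 716 kb over the map.

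*ALDH1A2*, the retinoic acid-synthesising enzyme, is transcribed from the minus strand of chromosome 15 (chr15:58245622-58790065, GRCh37). Its promoter fragment chr15:58350880-58359135 (8256 bp) held the starts of 5 of its 25 annotated transcripts and of the antisense RNA *ALDH1A2-AS1*. All 16 contacts lay downstream, beyond the 3′ end of the gene, and 9 of them were called in all 3 replicates. They fell into 4 blocks, a block being a run of PIRs at most 20 kb apart, and each block held a contact called in all 3 replicates.

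The block with the highest score lay in *POLR2M*, which encodes a subunit of an RNA polymerase II complex, with 7 contacts at 306 to 341 kb. Its strongest PIR, chr15:58039705-58042131 in an intron, scored 12.5, 9.89 and 10.97 in replicates 1, 2 and 3 (11.1 ± 1.31, SD, n = 3), highest in replicate 1. The adjoining fragment, which holds a *POLR2M* start, scored 7.91, 8.64 and 10.35 (8.97 ± 1.25), highest in replicate 3. The block nearest to the promoter lay between *POLR2M* and *ALDH1A2*, with 5 contacts at 195 to 200 kb. Its strongest PIR, chr15:58157400-58158644, scored 10.7, 10.4 and 8.46 (9.83 ± 1.20), lowest in replicate 3. The scores of these 3 PIRs overlapped between replicates. The other blocks were weaker and farther away. A pair of introns shared by *MYZAP*, a gene for a protein of the junctions between cardiomyocytes, and *GCOM1*, which overlaps it, had mean scores of 5.72 and 5.50 at 420.4 and 412 kb. The longest contact called in all 3 replicates, at 506 kb, held the non-coding gene ENSG00000276772 and scored 7.93, 5.58 and 6.14. No other promoter fragment of the map shared a PIR with *ALDH1A2*.

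The other 20 *ALDH1A2* transcripts start outside its promoter fragment, and 3 fragments holding some of those starts were themselves PIRs of *ADAM10*, which encodes a membrane protease, in all 3 replicates. The scores with *ADAM10* were 6.35, 7.43 and 5.38 at 506 kb, 6.85, 6.12 and 6.11 at 471 kb, and 5.88, 7.36 and 5.06 at 418 kb.

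*RARA*, the broadly expressed retinoic acid receptor, lies on the plus strand at chr17:38465432-38513895. Its promoter fragment chr17:38460840-38466232 (5393 bp) held the starts of 2 of its 10 transcripts. All 11 contacts lay downstream, 3 of them called in all 3 replicates. Replicate 2 held 5 of them, replicate 3 held 8 and replicate 1 held 10. A block of 8 contacts at 222 to 255 kb ran from the space between *TNS4* and *CCR7* into *CCR7*, which encodes a chemokine receptor. The strongest PIR, chr17:38688096-38688680 in that space, scored 8.08, 7.39 and 8.48 (7.98 ± 0.551, SD, n = 3). The fragment with a *CCR7* start, chr17:38716900-38717994, scored 7.48, 6.13 and 7.75 (7.12 ± 0.868), and a PIR between them 6.00, 5.78 and 5.72 (5.83 ± 0.147). Replicate 2 was the lowest for the first pair, and the last PIR lay below every replicate of both. The promoter fragment of *GJD3*, a gap junction gene 57.7 kb away, was called in replicates 1 and 2 at 7.12 and 6.54. At 1378 kb, next to *EIF1*, a PIR was called in replicate 3 alone among the replicates, at 9.59, and on the merged replicates at 7.76. Near it, at 1388 kb, a PIR with an *EIF1* exon was called in replicates 1 and 3, at 5.53 and 5.47. That PIR was not among the merged calls. The promoter fragment most like that of *RARA* was that of *IGFBP4*, 135 kb away, with 9 shared PIRs, 81.8% of those of *RARA* and 90.0% of those of *IGFBP4*.

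*RARG*, the receptor best known from skin and cartilage, lies on the minus strand at chr12:53604351-53626764. Its promoter fragment chr12:53612753-53634559 was 21807 bp long and held 16 of 18 transcript starts. It had 7 contacts, 7 in replicate 1, 3 in replicate 2 and 4 in replicate 3, and the 3 called in replicate 2 were those called in every replicate. These 3 adjoining PIRs lay in *ESPL1*, which encodes separase, the protease that frees sister chromatids. The strongest, chr12:53682655-53684128, scored 9.92, 10.9 and 9.23 (10.0 ± 0.844, SD, n = 3) at 59.7 kb. The fragment with an internal transcript start of *ESPL1* scored 9.54, 7.72 and 6.30 (7.85 ± 1.62) and that on the other side 9.04, 5.85 and 6.36 (7.08 ± 1.71), both highest in replicate 1. The strongest PIR had the highest score in each replicate. The promoter fragment of *PFDN5* and fragments in *AAAS* and *SPRYD3* were called in replicate 1 alone, at 5.63, 5.28 and 5.86. Every PIR of *RARG* was also a PIR of *ITGB7*, whose promoter fragment lies 27.8 kb away and had 18 PIRs.

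*RARB*, itself a classical retinoic acid target, lies on the plus strand of chromosome 3 and starts at many places. The promoter fragment chr3:25214660-25216559 held the start of 1 of its 23 transcripts, annotated as subject to nonsense-mediated decay. It had 2 contacts, each in a single replicate. A fragment in a *RARB* exon 409 kb downstream scored 5.35 in replicate 2, and a fragment 62869 kb downstream scored 6.25 in replicate 1. Replicate 3 held none. The starts around the printed DR5 window, from chr3:25469377 to chr3:25470207, lay in no fragment called with any promoter in the replicates.

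*RXRA*, the partner of the retinoic acid receptors, has 5 annotated transcripts starting between chr9:137208944 and chr9:137277968. None of these starts lay in a promoter fragment of a replicate. On the merged replicates the fragment chr9:137207468-137210397, with 1 of the starts, was called with chr9:137332051-137334318, which holds the last exon of *RXRA*, at a score of 5.66 over 124 kb. That fragment stood on the promoter side of the merged call. For the other *RXRA* starts, which lay on the promoter side of no call, a captured fragment without a call cannot be told apart from a fragment that was not captured, since the list of captured fragments was not used here.

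*CYP26A1*, whose product clears retinoic acid and which retinoic acid induces, had the highest single score of the 9 genes, 24.1. Its promoter fragment chr10:94831385-94838376 (6992 bp) held all 6 of its transcript starts. Of its 25 contacts, 14 were called in all 3 replicates, a number that 95.2% of promoter fragments of the map did not reach. The contacts lay on both sides, 2 upstream and 23 downstream, between 191 and 438 kb away.

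The strongest block lay 194 to 223 kb downstream, in the space between *CYP26A1* and *MYOF*, with 8 contacts of which 7 were called in all 3 replicates. Its highest PIR, chr10:95050372-95051111 (740 bp), scored 22.4, 24.1 and 23.1 (23.2 ± 0.859, SD, n = 3). The 160-base PIR printed above scored 18.97, 17.1 and 16.3 (17.5 ± 1.36), below the first in every replicate with no overlap. The fragments on either side of it were lower again, at 12.2 ± 0.378 and 12.1 ± 0.729. Within the block the score thus had 2 peaks, at 212 and 216 kb, with a longer fragment of lower score between them.

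A block of 12 contacts, 6 of them in all 3 replicates, lay inside *MYOF*, which encodes the membrane repair protein myoferlin. Its strongest PIR, chr10:95109850-95112530, scored 16.4, 15.0 and 12.6 (14.6 ± 1.95) at 276 kb, highest in replicate 1. The next fragment scored 12.4, 10.4 and 18.7 (13.9 ± 4.32), highest in replicate 3, so the order of these PIRs differed between replicates. In *CEP55*, a gene for a protein of the last step of cell division, 3 contacts lay at 432 to 438 kb, and the longest contact called in all 3 replicates was among them with 8.99, 5.31 and 7.60. Upstream, 2 fragments in an intron of *EXOC6*, which encodes an exocyst subunit, were called at 191 to 192 kb, the stronger at 6.04 and 7.45 in replicates 1 and 2. The promoter fragment most like that of *CYP26A1* was that of its neighbour and paralogue *CYP26C1*, 13.8 kb away, whose 6 PIRs were all PIRs of *CYP26A1*.

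*CYP26B1*, the second retinoic acid-degrading enzyme, lies on the minus strand at chr2:72356367-72374991. Its promoter fragment chr2:72373710-72376024 (2315 bp) held 3 of 5 transcript starts and had 27 contacts, 9 of them in all 3 replicates. Of the 27, 19 lay downstream and 8 upstream, all between 344 and 621 kb. In *DYSF*, which encodes the membrane repair protein dysferlin, 15 contacts were called at 496 to 621 kb. The strongest in all 3 replicates, chr2:71755319-71758917, scored 10.85, 12.2 and 9.16 (10.8 ± 1.54, SD, n = 3), and chr2:71783889-71784407 scored 8.74, 11.4 and 8.51 (9.56 ± 1.62). Replicate 2 was the highest for both, and their scores overlapped between replicates. In *EXOC6B*, upstream, 8 contacts were called at 426 to 613 kb. The strongest in all 3 replicates, chr2:72968554-72971621, scored 10.8, 5.38 and 6.80 (7.67 ± 2.83), of which replicate 1 was far the highest. The remaining contacts lay between *DYSF* and *CYP26B1*. The promoter fragment most like it, with 5 shared PIRs, was one in *EXOC6B* annotated with a copy of the small nucleolar RNA *SNORD78*.

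The flanks of the CYP26 genes are paralogous to each other, and so were the genes contacted. *MYOF* and *DYSF* are both ferlins, and *EXOC6* and *EXOC6B* are both exocyst genes. Of the *CYP26A1* contacts 14 of 25 fell in *MYOF* or *EXOC6*, and of the *CYP26B1* contacts 23 of 27 in *DYSF* or *EXOC6B*. Among contacts called in all 3 replicates it was 6 of 14 and 7 of 9. *EXOC6* had 2 contacts, and neither was called in all 3 replicates. No share over the map was taken for contacts in flanking genes. The block with the highest scores of *CYP26A1*, by contrast, lay outside any annotated gene.

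*NR2F1* lies on the plus strand at chr5:92918928-92930317. Its promoter fragment chr5:92913978-92921728 (7751 bp) held 4 of 7 transcript starts and those of *NR2F1-AS1*, its antisense RNA. It had 35 contacts, more than 94.0% of promoter fragments. Of these, 6 or 17.1% were called in all 3 replicates, beside 24.0% of all contacts, a number that 84.7% of promoter fragments did not reach. Of the 35, 28 spanned more than 1 Mb, and of all contacts at 1000 to 2000 kb 18.7% were called in all 3. Replicates 1, 2 and 3 held 17, 23 and 22 of the *NR2F1* contacts. The contacts fell into 14 blocks, of which 8 were reached in every replicate by some fragment and 4 held a contact called in all 3.

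Upstream, 23 contacts were spread over a region that holds long non-coding RNA genes. In *LINC02058*, 6 contacts lay at 665 to 675 kb. The strongest, chr5:92243816-92244989, scored 10.1, 7.75 and 7.32 (8.39 ± 1.50, SD, n = 3), highest in replicate 1. In *ARRDC3-AS1*, 8 contacts lay at 2078 to 2129.8 kb, of which chr5:90790436-90791844 scored 5.37, 8.90 and 9.74 (8.0 ± 2.32), lowest in replicate 1. The longest contact called in all 3 replicates ran over 4955 kb to the fragment chr5:87960424-87964907 with a start of *LINC00461*, between *TMEM161B* and *MEF2C*. It scored 8.08, 10.0 and 7.29 (8.46 ± 1.40), and was the strongest of the *NR2F1* contacts called in all 3, although the scores of these 3 PIRs overlapped. A fragment at 4928 kb, which overlaps an exon of *MEF2C-AS2* and holds the starts of the non-coding genes ENSG00000250377 and ENSG00000250555, scored 15.8 in replicate 3, was called in neither of the other replicates and was not among the merged calls.

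Downstream, 11 contacts lay at 1038 to 1325 kb in *SLF1*, a DNA repair gene, and *MCTP1*, which encodes a membrane protein with calcium-binding C2 domains. The fragments chr5:94070575-94073081 and chr5:94073082-94073853, where both genes overlap, scored 7.07, 5.64 and 8.01, and 5.65, 6.5 and 8.26, each highest in replicate 3. A single contact, with a score of 5.16 in replicate 2, lay on chromosome 6. The fragment next to the promoter fragment, with 3 further *NR2F1* starts, was called from the promoter fragment shared by *SLF1* and *KIAA0825* in replicate 3 at 8.18. The promoter fragment most like that of *NR2F1* was that of *MIR2277*, 39.0 kb away, with 13 shared PIRs, 37.1% of those of *NR2F1* and 48.1% of its own.

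*NR2F2* lies on the plus strand at chr15:96869167-96883492 in a region without another protein-coding gene, and had 2 promoter fragments, 977 bp apart. The first, chr15:96854564-96871122 (16559 bp), held 1 transcript start and that of *NR2F2-AS1*, and had 10 contacts, 3 of them in all 3 replicates. The second, chr15:96872100-96878904 (6805 bp), held 4 transcript starts and that of *MIR1469*, and had 26 contacts, 12 of them in all 3 replicates. Of the 36 contacts of both, 35 spanned more than 1 Mb.

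The strongest block lay 1651 to 1668 kb upstream of the second fragment, in the gene-free space after *MCTP2*, with 7 contacts of which 5 were called in all 3 replicates. The 279-base PIR printed above scored 23.8, 19.1 and 16.7 (19.9 ± 3.59, SD, n = 3), highest in replicate 1. The adjoining chr15:95213226-95214621 scored 16.8, 18.8 and 17.6 (17.7 ± 1.03), highest in replicate 2. The scores of these PIRs overlapped, and both lay above that of chr15:95212573-95212933, at 12.8, 13.6 and 11.9 (12.8 ± 0.891), in every replicate. The other main block lay at 1029.7 to 1079.5 kb with 10 contacts, 6 of them in all 3 replicates, in *LETR1*, a long non-coding RNA gene. Its strongest PIR, chr15:95805722-95806672, scored 15.4, 15.1 and 16.2 (15.6 ± 0.533), and the others called in all 3 had mean scores of 5.83 to 7.96. The longest contact called in all 3 replicates, over 1729.6 kb to chr15:95145168-95146710, scored 8.86, 6.05 and 5.36 (6.76 ± 1.85), highest in replicate 1. In *MCTP2*, up to 1919.9 kb away, 3 contacts had scores of 5.09 to 6.31, and none was called in all 3 replicates. Among the replicates, the 3 downstream contacts, in *LINC02253* and *LINC00923*, were called in replicate 3 alone, at 5.26, 5.21 and 7.05. The merged calls held all 3 of them, at 9.59, 7.89 and 7.03.

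The 3 contacts of the first fragment called in every replicate were among these PIRs. With chr15:95805722-95806672 it scored 9.83, 8.4 and 15.9 (11.4 ± 3.99), where replicate 3 stood far above the others, with chr15:95213226-95214621 6.59, 8.69 and 8.97 (8.08 ± 1.30), and with chr15:95212573-95212933 7.36, 8.7 and 5.82 (7.29 ± 1.44). All 10 PIRs of the first *NR2F2* fragment were PIRs of the second, of which they made up 38.5%. For each of the 10, the second fragment scored higher in every replicate that called both. The difference was large in the block after *MCTP2*, where the 279-base PIR scored 13.3 and 10.3 with the first fragment in replicates 1 and 3, against 23.8 and 16.7 with the second. It was small for chr15:95805722-95806672 in replicate 3, at 15.9 against 16.2. In replicate 2 the first fragment was not called with the 279-base PIR. These fragments adjoin, apart from the 977 bp, and differ in length, so their scores are not independent readings of the gene.

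**Figure D3:**
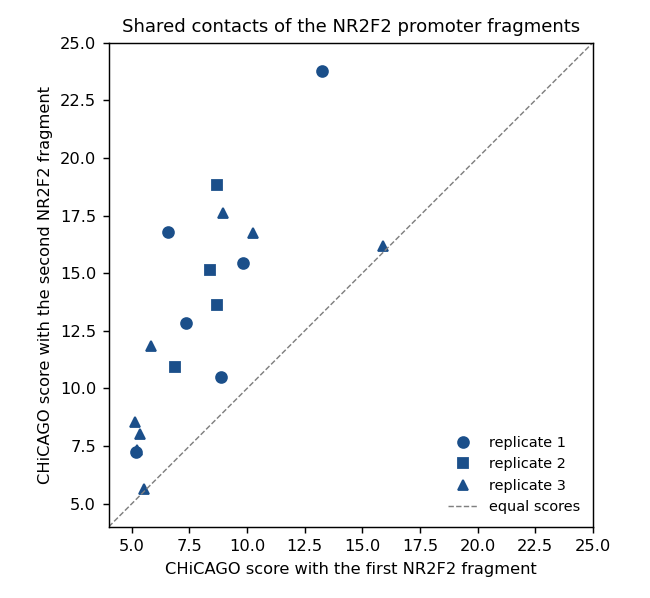
CHiCAGO score of each shared PIR with the first *NR2F2* promoter fragment (x axis) and with the second (y axis), 1 point per PIR and replicate that called both, with the dashed line at equal scores. All points lie above the line, from 5.51 against 5.63 near it to 13.3 against 23.8 far from it.

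**Figure D4:**
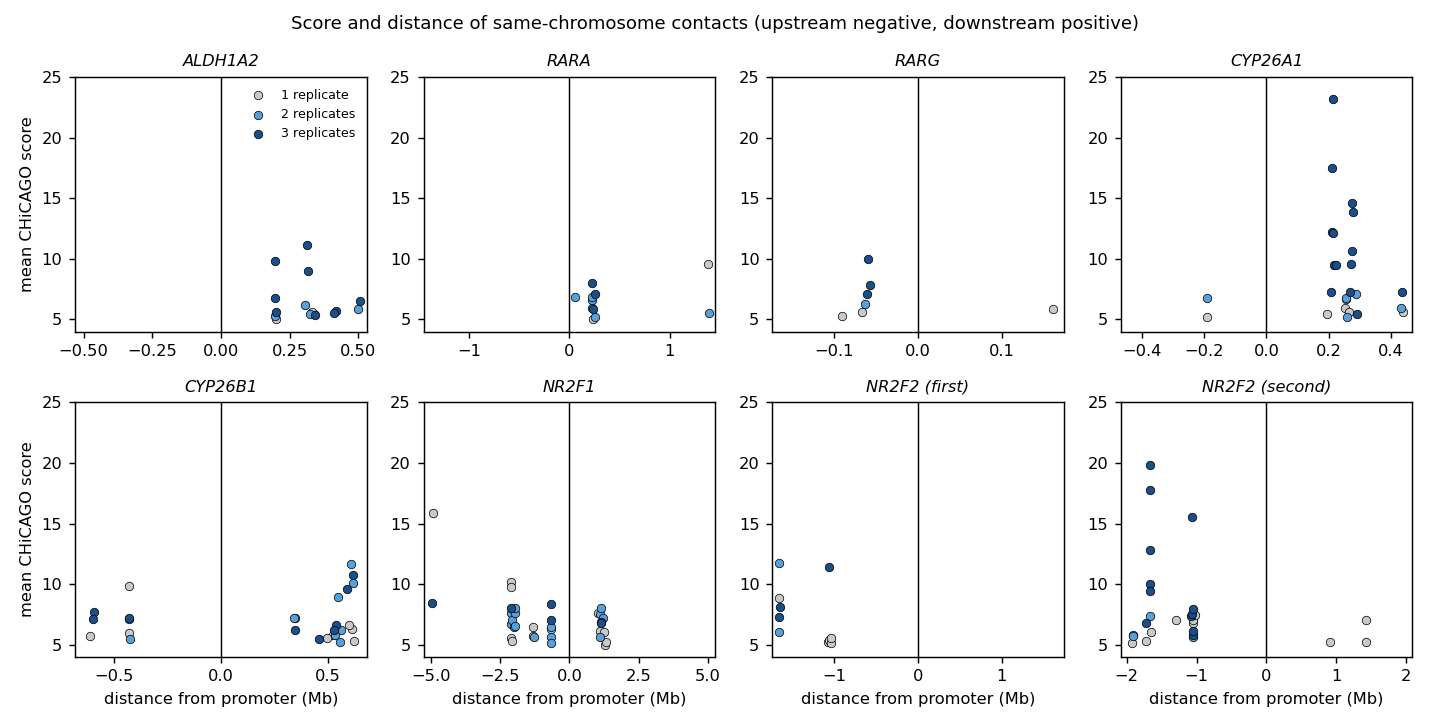
Mean CHiCAGO score over the replicates that called a contact (y axis) against the distance to the PIR in Mb (x axis, upstream negative, downstream positive in the direction of transcription), 1 panel per promoter fragment with its own distance scale and 1 point per same-chromosome contact, shaded by number of replicates. *RARB* is left out for its 2 contacts. Points of *ALDH1A2* and *RARA* lie on the downstream side and those of the first *NR2F2* fragment on the upstream side, and the points above a score of 17 belong to *CYP26A1* and the second *NR2F2* fragment.

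Scores of at least 10 in all 3 replicates were seen for 10 contacts, 6.29% of the 159 beside 4.99% of all contacts of the map. Of these, 6 were contacts of *CYP26A1* and 4 of *NR2F2*, and each of the other members had 0.

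**Figure D5:**
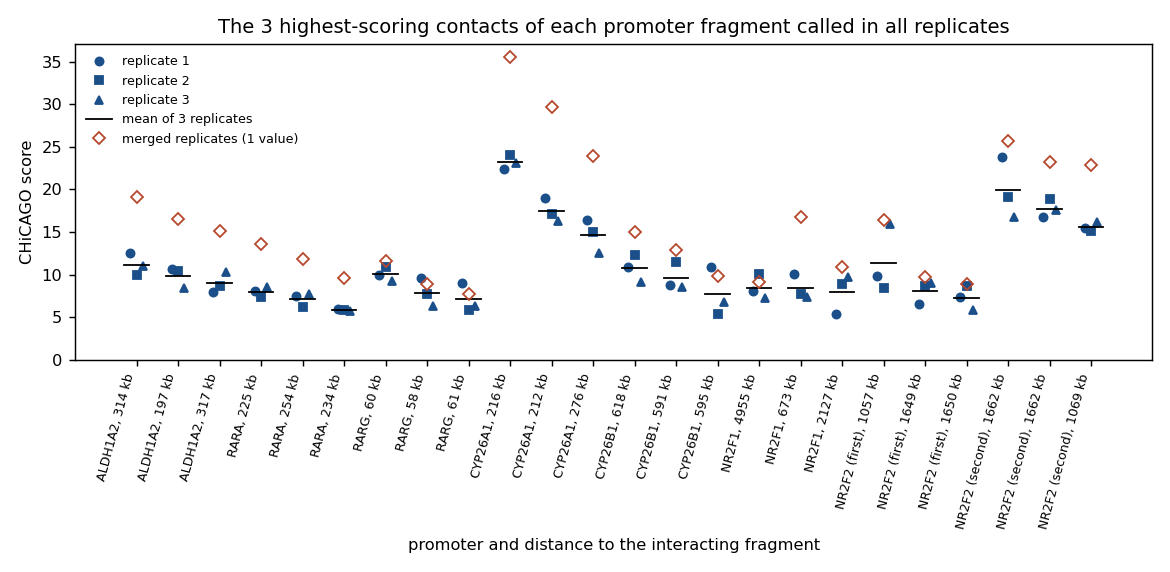
CHiCAGO score (y axis) of the 3 contacts with the highest mean score among those called in all replicates, for each promoter fragment, labelled with the distance to the PIR in kb (x axis). Filled points are replicates, bars their mean, and open diamonds the 1 value on the merged replicates. The *CYP26A1* contacts reach means of 23.2, 17.5 and 14.6 and those of the second *NR2F2* fragment 19.9, 17.7 and 15.6, while the highest means of the other fragments lie between 7.98 and 11.4.

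The members also differed in the direction of their contacts and in what lay around them. Of the 7 fragments with at least 10 same-chromosome contacts, 3 had all of them on 1 side, those of *ALDH1A2*, *RARA* and the first of *NR2F2*, beside 34.6% of all such fragments of the map. Within 1 Mb of the promoter, *NR2F2* had 0 annotated 5′ ends of other protein-coding genes, *NR2F1* had 2, *RARB* 4, *CYP26B1* 7, *ALDH1A2* 10, *CYP26A1* 16, *RARG* 63 and *RARA* 79, where the median of promoter fragments was 17. *RARB*, with 4 such ends, had 2 contacts, from a fragment that held the start of 1 of its 23 transcripts. None of the 36 *NR2F2* contacts and none of the 27 *CYP26B1* contacts passed over such an end, and neither did 20 of 25 for *CYP26A1*, 12 of 16 for *ALDH1A2* 21 of 34 for *NR2F1* and 1 of 2 for *RARB*. Every contact of *RARG* passed over at least 1, and every contact of *RARA* was counted as doing so. For the *RARA* contact with the *GJD3* fragment, however, the *GJD3* 5′ end lay within the PIR itself. No other such end lay between these fragments. The part of gene density in the number and reach of the contacts was not tested.

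Few of the PIRs were promoter fragments, that is, stood on the promoter side of any call in the replicates. A PIR that is itself a promoter fragment was found in 8 of the 159 contacts, 5.03%, beside 17.5% of all entries of the map. Of these 8, 5 belonged to *NR2F1*. Some PIRs outside this class also held an annotated transcript start, among them PIRs in *POLR2M*, *CCR7* and *ESPL1*. The share of PIRs with any annotated start was not taken. Contacts with fragments overlapping non-coding genes and no protein-coding gene made up 25.2%, beside 11.9%, and of these 40 contacts 20 belonged to *NR2F1*, 19 to *NR2F2* and 1 to *ALDH1A2*. Exons of protein-coding genes made up 22.6%, introns 21.4%, and fragments without an annotated gene 25.8%, beside 18.3%, 25.2% and 27.1% of all entries.

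Of 24 further genes of vitamin A handling and retinoic acid or NR2 receptor action, 18 had a promoter fragment and 14 of these a contact called in all 3 replicates, beside 53.7% of all genes with a promoter fragment. Together they had 247 contacts. The share in all 3 replicates was 33.2%, beside 24.0% of all contacts, and 25 contacts, or 10.1%, spanned more than 1 Mb, beside 40.4%. *DHRS3*, a retinaldehyde reductase that retinoic acid induces, had the most with 48, of which 21 were called in all 3 replicates, and *RBP4*, the retinol carrier of blood, and *DHRS9* had the fewest with 2 each. *STRA6*, *CRABP1*, *RXRB*, *NR2F6*, *NR2C2* and *NCOA3* had no promoter fragment in the replicates. None of the 247 contacts joined a promoter fragment of the 9 genes. No share over the map was taken for contacts between chosen sets of genes, so this absence has no background to be read against. Several of the further genes lie on chromosomes that hold none of the 9 genes, and contacts between chromosomes made up 3.87% of the map. Whether fewer such contacts were seen than for other genes was not tested.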

How the data were processed

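The data were PCHi-C interaction calls from hESC-CMs, 1 set for each of 3 biological replicates and 1 for the merged replicates. After mapping to GRCh37 (hg19) with HiCUP, the authors ran CHiCAGO with its defaults and deposited pairs of HindIII fragments with a CHiCAGO score. Tool versions were not given in the sources used here. Scores under 5 are not listed, so a missing call may be a weaker contact. Intervals and SDs measure these samples only, and the replicates are separate differentiations as far as the labels call them biological replicates.

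Transcript starts came from GENCODE 44 lifted to GRCh37. Unordered pairs were joined over the replicates, distances were taken between fragment midpoints, and means were taken over the replicates that called a contact. Merged calls were kept apart. The 158 fragments involved all had HindIII sites at both ends. Promoter windows came from RefSeq GRCh38.p14. The joining of calls was tested on simulated data. Python 3.11.15, numpy 2.4.6, scipy 1.17.1, matplotlib 3.10.9 and samtools 1.23.1 were used. Share intervals are 95% Wilson intervals.

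The members, the gene lists, the motifs and the blocks were chosen with earlier results of these data known. Contacts named were the 3 with the highest mean score called in all replicates, the longest of these, those holding a protein-coding start, the genes sharing a promoter fragment, and the promoter with the largest share of common PIRs. Others named, such as contacts of 1 replicate and the blocks, were chosen after their values were seen. With 1 condition no test between groups was possible. Alternatives were score thresholds of 7 and 10, each replicate left out, merged calls, ordered pairs, protein-coding transcripts, no contacts between promoter fragments, and matching within 5 kb.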

Additional observations from a re-analysis of the deposited data

Results flagged for a closer look

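The calls on the merged replicates held 47 contacts of these promoters that no single replicate held. No control sample exists to set them against. Their scores ran from 5 to 7.07, near the lowest listed. *ALDH1A2* had 12 of them, *RARB* 7, *NR2F2* 7, *RARA* 6, *NR2F1* 6, *CYP26A1* 5, *CYP26B1* 3 and *RXRA* 1. The 12 of *ALDH1A2* lay in or near its blocks of PIRs, in *MYZAP*, *GCOM1* and *POLR2M* and in the gene-free stretches beside them. Among those of *RARA* was the fragment chr17:38490413-38507316 with 4 of its own later starts, at a score of 7.07 over 35.3 kb. The 7 of *RARB* all lay within that gene, at 230 to 423 kb downstream of the promoter fragment. Of the contacts that replicates called, the merged calls held 59 of 59 seen in all 3, 44 of 47 seen in 2 and 34 of 53 seen in 1.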

How the results depend on the processing

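The 159 contacts became 84 with scores of at least 7 and 32 with scores of at least 10. They ranged from 137 to 147 with a replicate left out and were 184 on the merged calls, 157 with protein-coding transcripts, 151 without contacts between promoter fragments and 159 as ordered pairs. The share in all 3 replicates, 37.1%, was 31.0% with scores of at least 7 and 31.25% with scores of at least 10, where all contacts of the map gave 27.2% and 30.6%. The share in both remaining replicates ranged from 50.7 to 56.2% with a replicate left out, beside 36.9 to 37.5% of all contacts. Counting a called fragment of the same promoter within 5 kb as a match gave 81.1%, beside 47.8%. The median distance of 606 kb became 436 kb on the merged calls and ranged from 551 to 613 kb with a replicate left out. Per gene, *ALDH1A2* had 28 contacts on the merged calls, above the 27 of *CYP26B1*, *RARB* had 8 and *RXRA* 1. With scores of at least 7, *ALDH1A2* and *RARA* had 6 each, and with scores of at least 10 *RARG* had 1 and *RARA* 0. *RARG* had 4 without replicate 1, *RARB* had 1 without replicate 1 or 2, and *RARB* had 0 with protein-coding transcripts. Of the 24 top contacts, 20 scored farther from their mean than 1 SD on the merged calls. No paired analysis was possible because there is 1 group. Depth was not used here, so a missing call at 5 was not shown to be an absent contact, and scores of fragments of different length and distance share no common precision.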
